A study of Rattus norvegicus with 15 samples.

Results

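The 35 genes that the count files place on the mitochondrial chromosome (MT) were described one by one, out of 32552 genes in all. They were chosen by that chromosome alone and then separated by length, which left 13 genes of 200 bases or more and 22 shorter ones. The libraries were 15 bulk RNA-seq libraries of primary cortical astrocytes from Sprague Dawley rats, with 3 libraries in each of 5 groups. The control group received sterile water as the vehicle. The H2O2 group was exposed to 100 µM hydrogen peroxide for 30 min, a model of oxidative injury. The other 3 groups had the same H2O2 exposure and were treated 24 h later, with RNA collected 6 h after that. The mitochondria group received unmodified mitochondria isolated from rat placenta, the MitoCoat group received such mitochondria coated with the lipids DOTAP and DOPE, and the MitoCoat-mRNA group received RNA associated with those mitochondria in the same lipids. Donor and recipient were of 1 species and strain, so that mitochondrial transcripts made by the astrocytes and transcripts delivered to them cannot be told apart by sequence in these counts. Likewise, in bulk samples fewer cells and less RNA per cell cannot be told apart. The sources differ on the starting material. The labels' extraction text names fractions enriched in mitochondria, whereas the study's methods describe RNA of the treated astrocytes, and the libraries are described here as astrocyte RNA. If the RNA came from such fractions, every mitochondrial share and level would refer to the fraction and not to the whole cell. The labels call the libraries poly(A) RNA. The study's text calls the libraries of a group biological replicates. The labels do not say whether these came from separate cultures or animals, so each p-value measures the spread between these libraries, whatever its source. The levels of markers of astrocytes and of other cell types were not analysed here, because the files name genes by identifier only, and none of the 32552 could be looked up (0 matches to the reference table).

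Mammalian mitochondrial DNA is a small circle whose strands are both transcribed as long precursors. Transfer RNA genes lie between most of the messenger RNA genes, and cutting them out releases the messengers. Most messengers are then given short poly(A) tails. All of the encoded proteins are subunits of the respiratory chain or of ATP synthase. The Nd genes encode the membrane core of complex I, which oxidises NADH. Cytb encodes the cytochrome b of complex III, the Cox genes encode the catalytic core of complex IV (cytochrome c oxidase), and Atp6 and Atp8 encode parts of the proton channel side of complex V (ATP synthase). In astrocytes this chain supplies part of the ATP that the cells use for ion and glutamate uptake.

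The files hold positions and strands but no gene names. The number, strand, order and overlaps of the 35 genes were those of the conserved vertebrate mitochondrial map, and the names used below were assigned by that order. All positions are on chromosome MT of the Rnor6.0 assembly. Of the long genes, 12 lay on the plus strand, and mt-Nd6 (positions 13543 to 14061, 519 bases) lay on the minus strand. The counting is described as using strand where applicable, so mt-Nd6 counts may include reads of a plus-strand precursor across it. The complex I genes on the plus strand were mt-Nd1 (2740 to 3694, 955 bases), mt-Nd2 (3904 to 4942, 1039 bases), mt-Nd3 (9451 to 9798, 348 bases), mt-Nd4l (9870 to 10166, 297 bases), mt-Nd4 (10160 to 11537, 1378 bases) and mt-Nd5 (11736 to 13565, 1830 bases). The gene of complex III, mt-Cytb, spanned 14136 to 15278 (1143 bases). Complex IV was encoded by mt-Cox1 (5323 to 6867, 1545 bases), mt-Cox2 (7006 to 7689, 684 bases) and mt-Cox3 (8599 to 9382, 784 bases). The complex V genes were mt-Atp8 (7758 to 7961, 204 bases) and mt-Atp6 (7919 to 8599, 681 bases). Every long gene is a single exon with no intron. Neighbours shared 43 bases between mt-Atp8 and mt-Atp6, 23 bases between mt-Nd5 and mt-Nd6 on opposite strands, 7 bases between mt-Nd4l and mt-Nd4 and 1 base between mt-Atp6 and mt-Cox3. Reads in shared bases could not be assigned to either gene from the counts, which makes mt-Atp8 the least certain of the 13, since its overlap with mt-Atp6 is the longest and it is the shortest gene. No row covered positions 68 to 1025 (958 bases) or 1094 to 2664 (1571 bases), where the small and the large ribosomal RNA lie on the vertebrate map. The ribosomal RNAs were therefore not analysed here, and the 13 long genes were all protein-coding.

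The libraries held 35315654 to 46778663 counts, of which 1227789 to 1879642 fell on the 35 mitochondrial genes. Counting error was therefore small for the long genes, and the spread between libraries set the precision. Levels are given as counts per 1000000 counts of the library (CPM), and as CPM per kilobase of gene where genes are set against each other.

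Complex IV genes were the most abundant group. They took 54.9 to 62.8% of the mitochondrial counts, and mt-Cox1 alone took 32.5 to 42.0%. Per kilobase, mt-Cox1 had 8423 ± 1223 CPM (mean ± SD over the 15 libraries), and it was above mt-Cox3 in 15 of 15 libraries, by 1.51 ± 0.203 times. The next genes were mt-Cox3 with 5638 ± 976 CPM per kilobase, mt-Atp6 with 5503 ± 1336 and mt-Cox2 with 5360 ± 1038. These 3 could not be ordered, since mt-Cox3 was above mt-Atp6 in 8 of 15 libraries and mt-Atp6 above mt-Cox2 in 10 of 15. mt-Cytb had 3871 ± 565 CPM per kilobase and was below mt-Cox2 and above mt-Atp8 in 15 of 15 libraries. mt-Atp8 (2548 ± 728) and mt-Nd1 (2334 ± 608) came next, in that order in 12 of 15 libraries and with overlapping ranges in every group.

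Complex I genes other than mt-Nd1 filled the lower end of the range. mt-Nd2 had 1600 ± 341 CPM per kilobase and mt-Nd4l had 834 ± 163, and the ranges of this pair did not overlap in any of the 5 groups. mt-Nd5 (692 ± 126), mt-Nd6 (633 ± 153) and mt-Nd3 (518 ± 95.9) followed, and each of the pairs of neighbours among them was in this order in 11 of 15 libraries, with overlapping ranges in all groups. mt-Nd4 was the lowest long gene at 119 ± 31.6 CPM per kilobase. Within a library mt-Nd3 was 4.50 ± 0.79 times above it, and mt-Cox1 was 57.6 to 99.2 times above it. mt-Nd4 and mt-Nd4l are read from 1 shared messenger in vertebrates, and mt-Nd4l was 5.70 to 8.26 times above mt-Nd4 per kilobase. The counts of at least 1 of these genes are therefore not a level of that messenger. What set them apart was not tested.

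**Figure D1:**
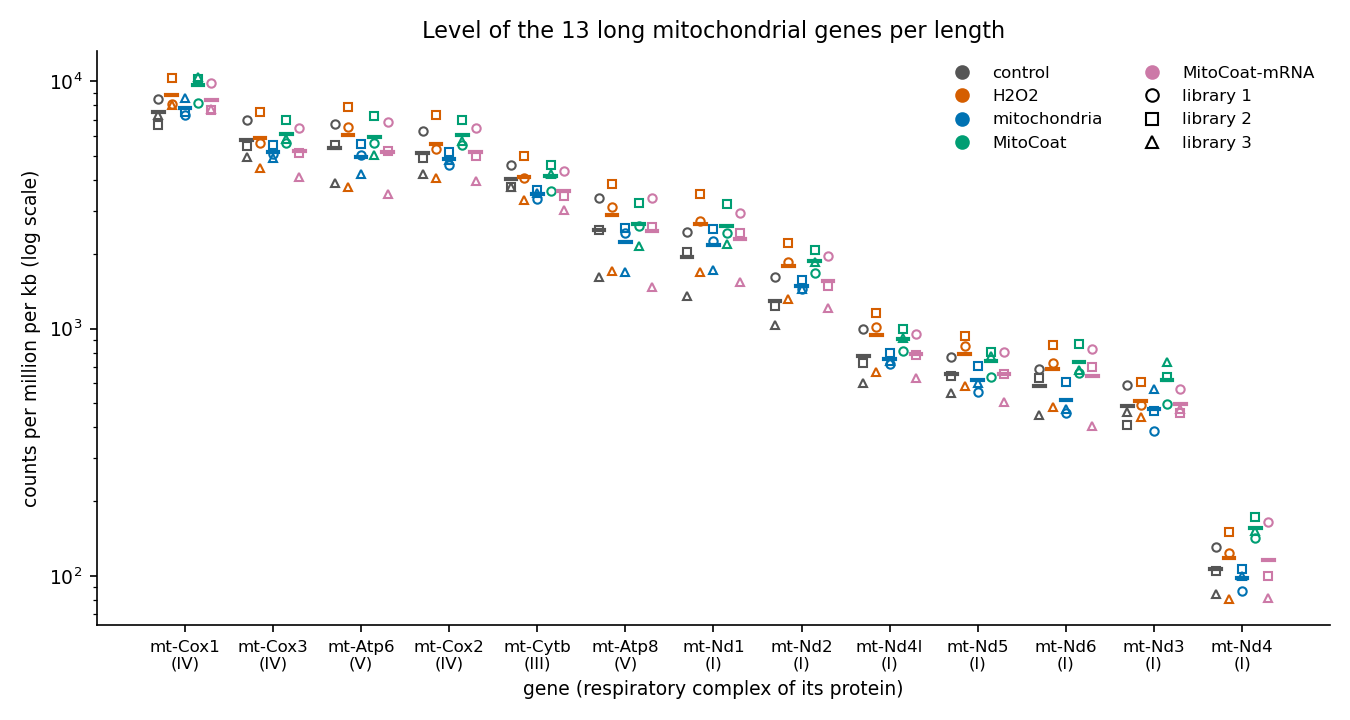
Level of the 13 long mitochondrial genes in CPM per kilobase of gene on a logarithmic axis, with 1 point per library, a colour per group, a marker per library number and a bar at the group mean. mt-Cox1 (mean 8423) stood at the top and mt-Nd4 (mean 119) at the bottom in all 5 groups.

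The share of all counts on the 35 genes was compared first, as the quantity that delivered mitochondria or RNA could raise. It was 4.05, 3.16 and 2.87% in the control libraries and 3.81, 4.61 and 2.97% in the H2O2 libraries. The mitochondria libraries had 3.18, 3.47 and 3.35%, the MitoCoat libraries 3.60, 4.48 and 4.17%, and the MitoCoat-mRNA libraries 4.20, 3.27 and 2.81%. Only MitoCoat and mitochondria did not overlap, with a difference of means of 0.746 percentage points (exact two-sided permutation test, p = 0.1, the smallest p that 3 against 3 libraries allow). The H2O2 and control groups differed by 0.434 percentage points (exact permutation p = 0.6), less than their spread. This difference ran from 0.028 to 0.848 with 1 library left out.

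A difference between libraries that did not follow the groups came through in the composition of the mitochondrial counts. The 3 libraries of each group carry the numbers 1 to 3 in the labels, which do not say what libraries of 1 number share. The share of mt-Cox1 among the counts of the 13 long genes was 32.9, 32.5 and 38.4% in control libraries 1, 2 and 3, and 33.5, 33.7 and 41.1% in the H2O2 libraries. In the treated groups it was 35.7, 34.1 and 40.5% with mitochondria, 35.7, 35.4 and 40.5% with MitoCoat, and 35.9, 35.5 and 42.1% with MitoCoat-mRNA. Library 3 was the highest in all 5 groups for mt-Cox1, mt-Nd3 and mt-Cytb, and the lowest in all 5 for mt-Nd1, mt-Atp8, mt-Atp6 and mt-Cox3. For mt-Atp8 the share was 1.73, 1.61 and 1.12% in the control libraries and 1.68, 1.66 and 1.16% in the H2O2 libraries. Library 3 thus differed from libraries 1 and 2 by 0.23 for mt-Cox1, -0.37 for mt-Atp6, -0.41 for mt-Nd1 and -0.53 for mt-Atp8 on the log2 scale of the share. Of the spread of the log2 share over the 15 libraries, the number accounted for 94.0% in mt-Atp8, 93.0% in mt-Atp6, 84.0% in mt-Cox1 and 82.7% in mt-Nd1. The group accounted for most of it in mt-Cytb (83.2%), mt-Nd2 (80.7%), mt-Cox3 (71.6%) and mt-Nd4 (57.9%). These shares were looked at after the values had been seen and are given without a test.

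**Figure D2:**
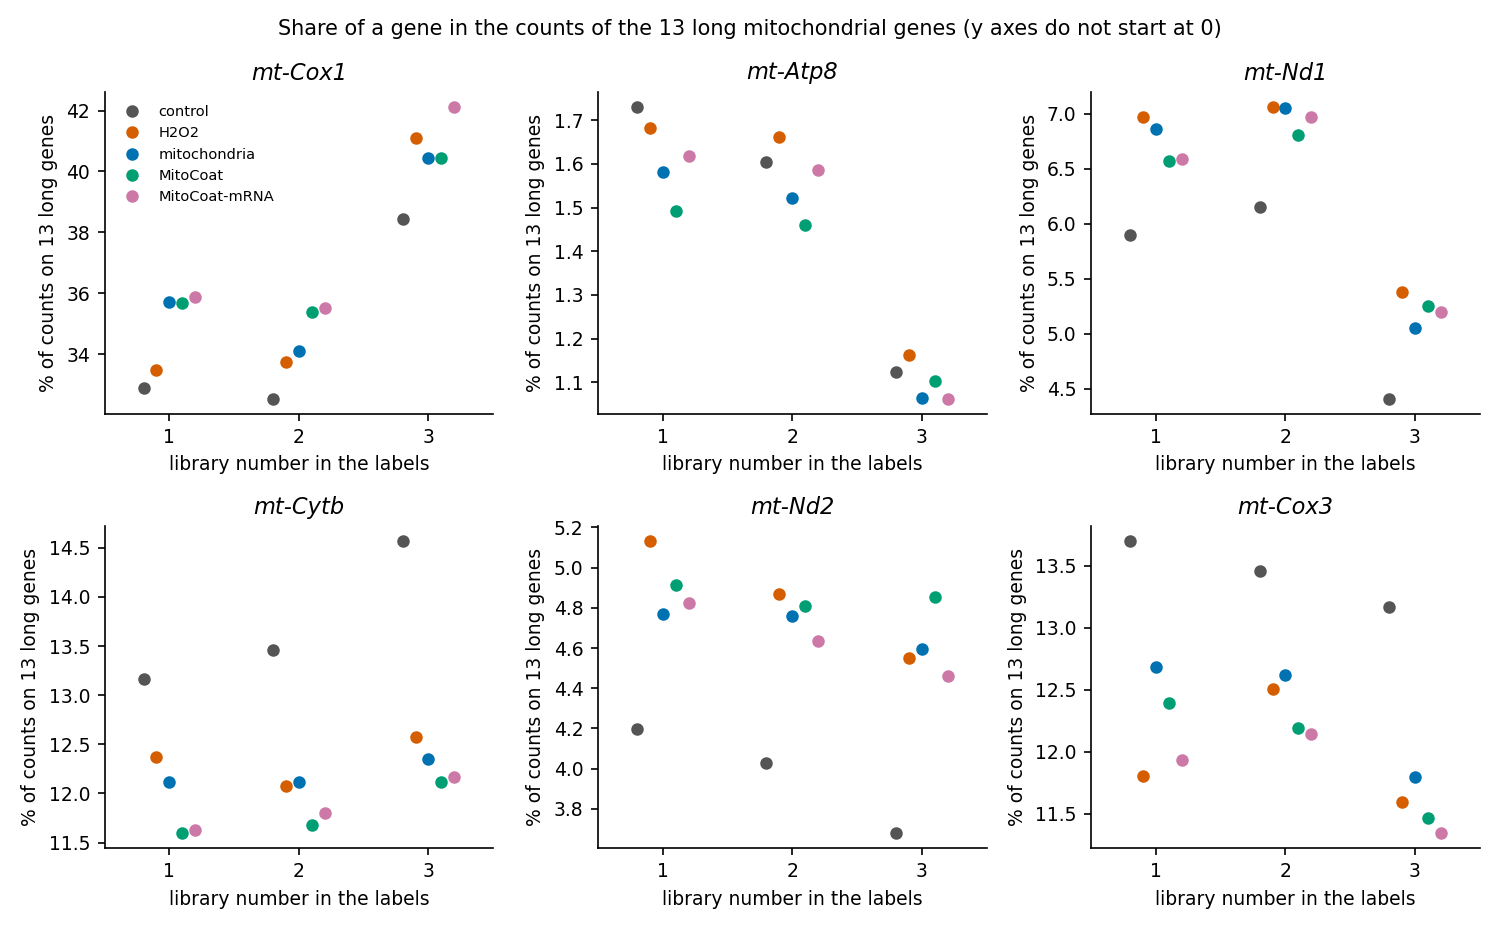
Share of the counts of the 13 long genes taken by mt-Cox1, mt-Atp8, mt-Nd1, mt-Cytb, mt-Nd2 and mt-Cox3 (percent, y axis) for libraries numbered 1, 2 and 3 (x axis), with 1 colour per group. Library 3 stood apart for mt-Cox1 (38.4 to 42.1%) and mt-Atp8 (1.06 to 1.16%) in every group, while the control group stood apart for mt-Cytb, mt-Nd2 and mt-Cox3.

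The control group against the H2O2 group asks what the peroxide alone left behind in the mitochondrial messengers. None of the 13 long genes passed the test, which was edgeR's quasi-likelihood test on all genes with Benjamini-Hochberg adjustment and a threshold of 0.05. All 13 had positive log2 fold changes, from 0.04 to 0.49 with a median of 0.22, while the median over all 15650 genes tested was 0.01 and 50.9% of them were positive. In this and the later comparisons the 13 long genes are not separate observations, since they are parts of a few shared precursors. Within library numbers 1, 2 and 3 the mitochondrial share of all counts differed by -0.236, 1.447 and 0.093 percentage points. Across the genome 1125 genes passed, which is 7.19%, and among the 28 mitochondrial genes tested 1 passed, a tRNA gene described below. Unadjusted, 1 of the 13 long genes had a p under 0.05, against 3512 genes or 22.4% of the whole table, and adjusted values began at 0.222.

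The largest value was that of mt-Nd2, a proton-pumping subunit of complex I, which had 1674, 1279 and 1078 CPM in the control libraries and 1922, 2305 and 1370 in the H2O2 libraries. The groups overlapped, and the log2 fold change was 0.49 with an SE of 0.21 (95% interval 0.00 to 0.98, adjusted p = 0.222). mt-Nd1, the subunit nearest to the quinone site of complex I, had 2351, 1953 and 1291 CPM in control and 2612, 3343 and 1619 with H2O2. The H2O2 library was above the control library of the same number each time, although the groups overlapped, and the log2 fold change was 0.45 with an SE of 0.28 (adjusted p = 0.382). With 1 library left out it ran from 0.19 to 0.69. mt-Nd5, which had 1403, 1182 and 1007 CPM in control, had 1559, 1711 and 1076 with H2O2.

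The low-level complex I genes overlapped too. mt-Nd6, the only long gene on the minus strand, had 357, 327 and 231 CPM in control and 377, 444 and 249 with H2O2, a log2 fold change of 0.24 with an SE of 0.22 (adjusted p = 0.571) that ran from 0.04 to 0.44 with 1 library left out. mt-Nd3 had 206, 141 and 161 CPM in control and 170, 211 and 152 with H2O2. mt-Nd4l had 295, 215 and 179 CPM in control and 300, 344 and 198 with H2O2. For both genes the libraries of a group spread more widely than the group means differed.

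In complex IV, mt-Cox1 had 13115, 10332 and 11262 CPM in control and 12536, 15962 and 12372 with H2O2. The log2 fold change was 0.25 with an SE of 0.14 (adjusted p = 0.349) and ran from 0.11 to 0.34 with 1 library left out, and the overlap came from the first control library alone. mt-Cox3 had 5461, 4275 and 3858 CPM in control against 4422, 5917 and 3489 with H2O2, a log2 fold change of 0.04 with an SE of 0.20 (adjusted p = 0.931), whose sign changed with the library left out. mt-Cox2 had 4315, 3364 and 2876 CPM in control against 3657, 4999 and 2788 with H2O2. In both genes the H2O2 libraries reached beyond the control libraries at either end. mt-Cytb had 5246, 4274 and 4270 CPM in control and 4632, 5712 and 3785 with H2O2 (log2 fold change 0.05, SE 0.16, adjusted p = 0.890), with the same wider range in H2O2, and its sign also changed with the library left out.

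The complex V genes overlapped as well. mt-Atp6, which encodes the channel subunit a, had 4570, 3767 and 2646 CPM in control and 4464, 5372 and 2534 with H2O2. mt-Atp8 had 690, 510 and 329 CPM in control and 630, 786 and 350 with H2O2. Both genes were lowest in library 3 of each group. Neither gene was called, and what kept them from a call was not tested.

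**Figure D3:**
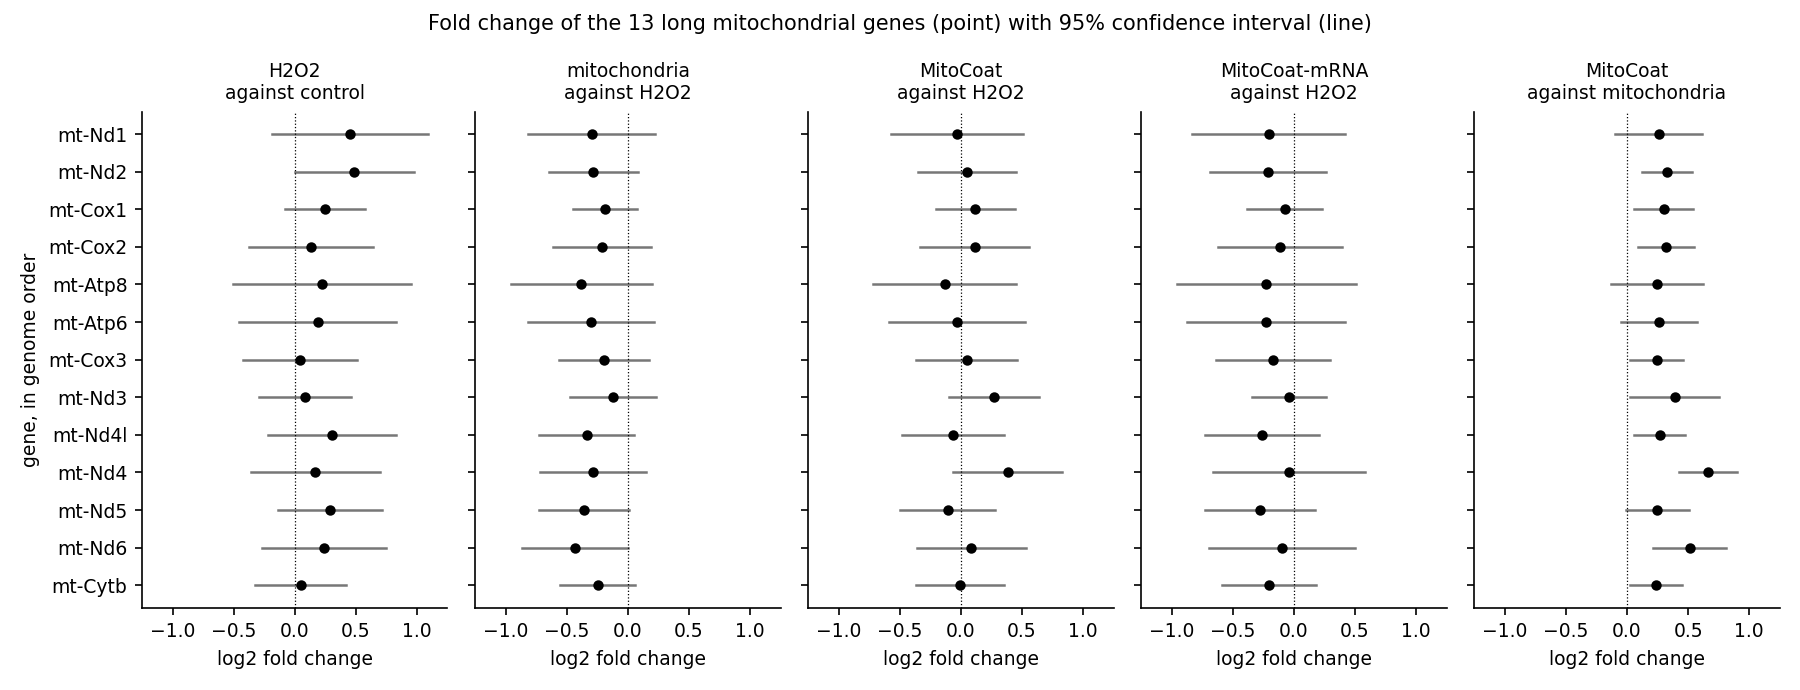
Log2 fold change of each of the 13 long genes in 5 comparisons (panels), with 95% confidence intervals from edgeR. Points lay above 0 for all 13 genes in H2O2 against control and in MitoCoat against mitochondria, and below 0 for all 13 in mitochondria against H2O2 and in MitoCoat-mRNA against H2O2, while none of the genes in these panels passed the adjusted threshold.

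Within the mitochondrial counts, the control group was set apart from all 4 H2O2-exposed groups in 3 genes. The share of mt-Cytb among the long-gene counts was 13.2, 13.5 and 14.6% in control, 12.4, 12.1 and 12.6% with H2O2, and 11.6 to 12.4% in the treated groups. Every control library was above every exposed library. mt-Cox3 was likewise higher in control, with 13.7, 13.5 and 13.2%, than with H2O2, with 11.8, 12.5 and 11.6%, and no treated library was above 12.7%. mt-Nd2 went the other way, with 4.20, 4.03 and 3.68% in control and 5.13, 4.87 and 4.55% with H2O2, and all treated libraries lay between 4.46 and 4.92%. The share of mt-Nd1 was 5.90, 6.15 and 4.41% in control and 6.97, 7.07 and 5.38% with H2O2. It was higher with H2O2 for each library number but overlapped, because library 3 was low in both groups. These shares are parts of a whole and do not change independently of each other.

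The ratio of mt-Nd1 to mt-Cytb set a gene near the start of the plus-strand map against the last protein gene on it. Per kilobase it was 0.536, 0.547 and 0.362 in the control libraries and 0.675, 0.701 and 0.512 in the H2O2 libraries. The treated groups gave 0.678, 0.697 and 0.489 with mitochondria, 0.678, 0.697 and 0.519 with MitoCoat, and 0.679, 0.707 and 0.511 with MitoCoat-mRNA. Compared number by number, the 4 exposed groups gave nearly the same ratios and the control group gave a lower one. The difference between H2O2 and control was 0.40 on the log2 scale, and 0.33 to 0.50 within a number (exact two-sided permutation test without regard to the number, p = 0.3). It ran from 0.20 to 0.54 with 1 library left out. Against H2O2, the differences were -0.02 for mitochondria, 0.01 for MitoCoat and 0.01 for MitoCoat-mRNA. This ratio was chosen after the gene values had been seen, and the 4 comparisons with control share the same 3 control libraries.

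Complex I to complex IV, computed from summed counts per kilobase, was 0.333, 0.339 and 0.276 in control, 0.408, 0.374 and 0.318 with H2O2, 0.349, 0.371 and 0.310 with mitochondria, 0.355, 0.361 and 0.333 with MitoCoat, and 0.307 to 0.371 with MitoCoat-mRNA. H2O2 was above control by 0.21 on the log2 scale, and by 0.142 to 0.293 within a number, but the groups overlapped (p = 0.3 by the exact permutation test). The treated groups differed from H2O2 by -0.09, -0.06 and -0.08 (exact permutation p = 0.4, 0.6 and 0.5). Within a number, mitochondria were below H2O2 each time, by -0.225, -0.012 and -0.038, and so was MitoCoat-mRNA, by -0.180, -0.012 and -0.051. MitoCoat gave -0.198, -0.052 and 0.062. In all 3 groups library 1 held the most negative value. Each was set against H2O2 library 1, whose ratio (0.408) was the highest of the 15 libraries. Complex V to complex IV was 0.464, 0.471 and 0.335 in control and 0.505, 0.466 and 0.329 with H2O2, a difference of 0.03 on the log2 scale (p = 0.9 by the exact permutation test). It was 0.441, 0.446 and 0.324 with mitochondria, 0.425, 0.431 and 0.328 with MitoCoat, and 0.446, 0.440 and 0.315 with MitoCoat-mRNA. Within a number each treated library was below the H2O2 library, by means of -0.09, -0.12 and -0.11, and below the control library, by means of -0.07, -0.10 and -0.08 (exact permutation without regard to the number, p = 0.5 each). Library 3 was lowest for this ratio in every group.

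Complex III to complex IV showed little of the difference between library numbers. It was 0.211, 0.219 and 0.228 in control and 0.212, 0.198 and 0.200 with H2O2, which overlapped in 1 library (log2 difference -0.11, exact permutation p = 0.2). It was 0.197, 0.199 and 0.193 with mitochondria, 0.186, 0.189 and 0.192 with MitoCoat and 0.189, 0.193 and 0.191 with MitoCoat-mRNA. All 3 treated groups lay below control without overlap, by -0.16, -0.21 and -0.20 on the log2 scale. MitoCoat and MitoCoat-mRNA also lay below H2O2 without overlap, by -0.11 and -0.09, and MitoCoat below mitochondria by -0.05. Mitochondria lay above MitoCoat-mRNA without overlap, by 0.04. Each of these differences had the smallest p that the exact permutation test can give with 3 against 3 libraries, 0.1. Over the family of 70 ratio tests the smallest adjusted p was 0.808, so no ratio passed.

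**Figure D4:**
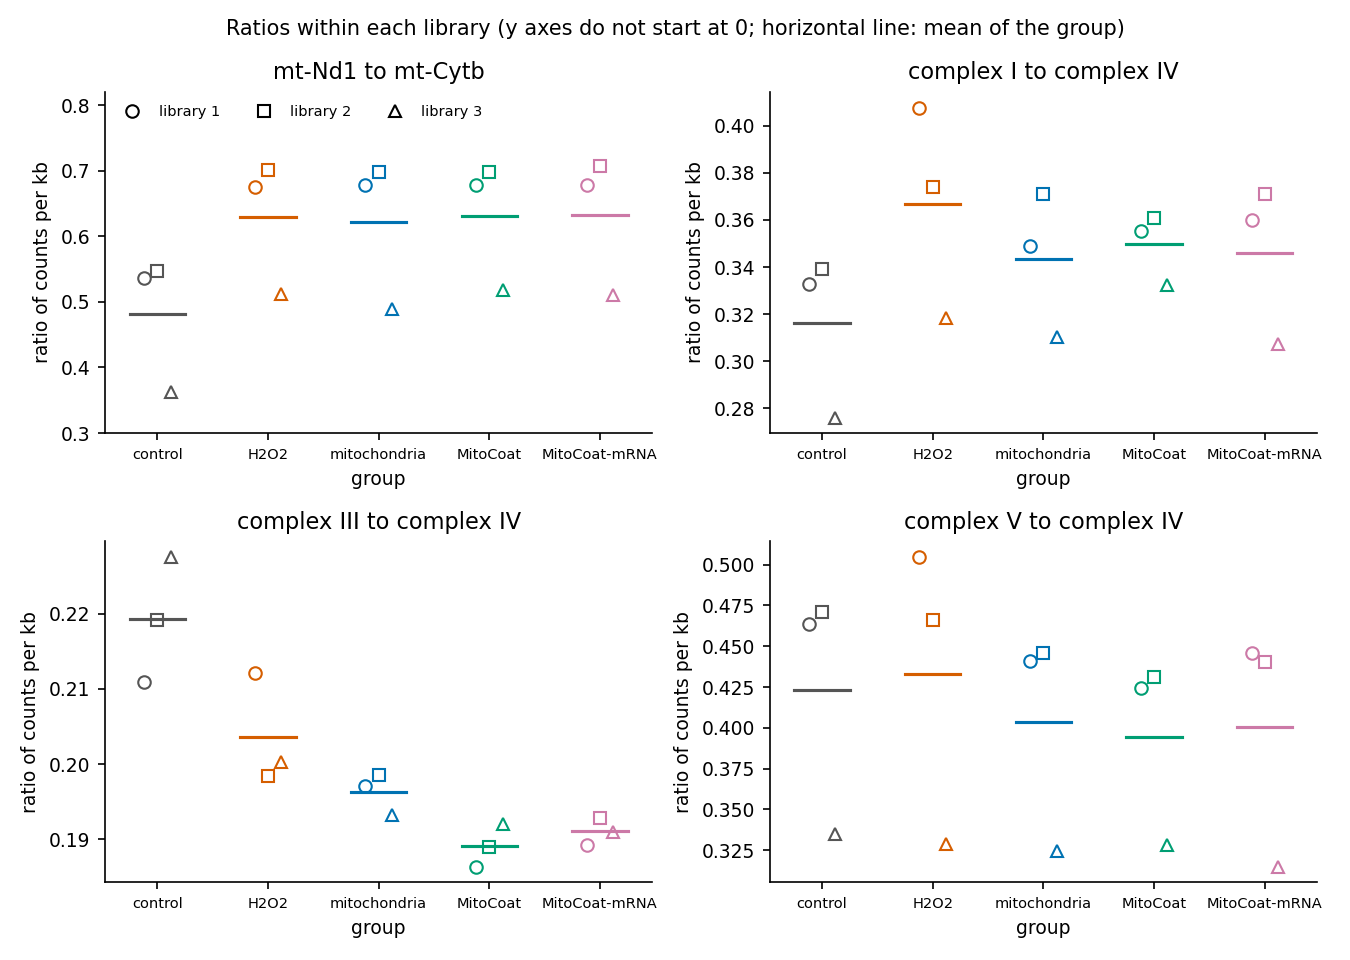
Ratio of mt-Nd1 to mt-Cytb and of complexes I, III and V to complex IV, from counts per kilobase, for the 3 libraries of each group (points, with the marker giving the library number). The control libraries lay below the exposed library of the same number for mt-Nd1 to mt-Cytb, and above all treated libraries for complex III to complex IV.

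The treated groups were compared with the H2O2 group, which asks whether delivery moved the mitochondrial transcripts of injured astrocytes. These 3 comparisons share the H2O2 libraries, of which the second had the highest mitochondrial share of all 15 libraries (4.61%). With unmodified mitochondria all 13 long genes had negative log2 fold changes, from -0.43 to -0.12 with a median of -0.28, and none passed the test (smallest adjusted p 0.364). The median over all genes was -0.01 and 52.5% were below 0. The whole table had 560 genes called, or 3.59%, and 1 of the 28 mitochondrial genes tested was called, the gene of tRNA-Ser(UCN). mt-Nd6 had 237, 315 and 246 CPM with mitochondria and a log2 fold change of -0.43 with an SE of 0.20 (adjusted p = 0.364). With the library number as a block, a fit the data allow here since libraries of 1 number deviated together, the value was -0.40 and the gene passed (adjusted p = 0.018), as did 1243 genes of the whole table, or 7.96%. It passed in none of the 13 remaining settings, with adjusted p up to 0.679, and with 1 library left out the value ran from -0.63 to -0.24. mt-Cox1 had 11238, 11661 and 13177 CPM with mitochondria, a log2 fold change of -0.19 with an SE of 0.12 (adjusted p = 0.575).

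With MitoCoat, 16 of the 29 mitochondrial genes tested had higher and 13 lower values than with H2O2, and none was called by edgeR or by DESeq2. Unadjusted, 1 of the 29 had a p under 0.05, against 2345 genes or 14.9% of the whole table. Of all genes tested 479, or 3.05%, were called. The long genes ranged from -0.13 to 0.38 on the log2 scale, 7 above and 6 below 0. The highest was mt-Nd4, which encodes a proton-pumping subunit of complex I, at 171, 208 and 111 CPM with H2O2 and 196, 239 and 208 with MitoCoat (log2 fold change 0.38, SE 0.20, adjusted p = 0.434). It ran from 0.16 without H2O2 library 3 to 0.60 without H2O2 library 2. The H2O2 and MitoCoat libraries overlapped in mt-Nd4 through the second H2O2 library.

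With MitoCoat-mRNA, 5 of 30 mitochondrial genes tested were higher and 25 lower than with H2O2. edgeR called 0 of the 30 and 0 of all 15506 genes tested, or 0%, and DESeq2 also called 0 in both. At an unadjusted p under 0.05 there was 1 mitochondrial gene and 463 genes in all, or 2.99%. All 13 long genes had negative log2 fold changes, from -0.28 to -0.04 with a median of -0.20. The most negative long gene was mt-Nd5, with 1559, 1711 and 1076 CPM with H2O2 and 1472, 1193 and 922 with MitoCoat-mRNA (log2 fold change -0.28, SE 0.20, adjusted p = 1.00). No rise of a mitochondrial messenger was called after delivery of RNA in lipids. Whether a small rise was missed was not tested.

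MitoCoat and unmodified mitochondria were compared to see what the lipid coat changed. All 28 mitochondrial genes tested had positive log2 fold changes, the 13 long ones from 0.24 to 0.66 with a median of 0.27. edgeR called 0 of them and 0 of all 15731 genes, or 0%, and each of the 28 had an adjusted p of at least 0.889. At an unadjusted p under 0.05 there were 13 of the 28, 9 of them long genes, against 779 or 4.95% of all genes tested. In 10 of the 28, 6 of them long, every MitoCoat library was above every mitochondria library, as in 949 or 6.03% of all genes. The 28 genes are parts of a few shared precursors, and they moved with the share of mitochondrial counts, so that they are not separate observations. mt-Nd4 had 120, 147 and 138 CPM with mitochondria and 196, 239 and 208 with MitoCoat. The groups were well apart, and the log2 fold change was 0.66 with an SE of 0.10 (95% interval 0.43 to 0.90, adjusted p = 0.889). DESeq2 called mt-Nd4 in this comparison with the same log2 fold change, as 1 of 3 genes in its whole table, and edgeR with the library number as a block called it too (0.66, adjusted p = 0.014), as 1 of 5 genes or 0.0318% of its whole table. It passed in 2 of 14 other settings. mt-Nd6 had 342, 449 and 353 CPM with MitoCoat, without overlap, and a log2 fold change of 0.51 with an SE of 0.13 (adjusted p = 0.889).

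The other long genes differed less between these groups. mt-Cox3 had 3991, 4314 and 3843 CPM with mitochondria and 4399, 5457 and 4566 with MitoCoat, a log2 fold change of 0.24 with an SE of 0.10 (adjusted p = 0.889). mt-Cox2 had 3127, 3554 and 3272 CPM with mitochondria and 3776, 4784 and 3909 with MitoCoat. mt-Nd4l had 213, 237 and 221 CPM with mitochondria and 241, 296 and 273 with MitoCoat. Neither of these groups overlapped in these 3 genes. mt-Nd2, with 1501, 1627 and 1497 CPM against 1745, 2153 and 1933, did not overlap either. mt-Cox1 had 12663, 15846 and 16105 CPM with MitoCoat, and its first library overlapped the mitochondria group. Overlap was also seen in mt-Nd1 (2160, 2413 and 1645 CPM with mitochondria against 2332, 3046 and 2091), mt-Nd5 (1017, 1292 and 1097 against 1171, 1472 and 1416) and mt-Nd3 (134, 161 and 198 against 172, 222 and 254). For mt-Cytb the values were 3815, 4141 and 4024 CPM with mitochondria and 4117, 5229 and 4823 with MitoCoat. mt-Atp6 had 3425, 3805 and 2865 CPM with mitochondria and 3819, 4923 and 3440 with MitoCoat, and mt-Atp8 had 498, 520 and 347 against 530, 654 and 439. These last 3 genes overlapped by 1 or more libraries.

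mt-Nd4 stood out from its partner mt-Nd4l in the MitoCoat group. Per kilobase, mt-Nd4l was 6.92 to 7.56 times mt-Nd4 in control, 7.67 to 8.26 times with H2O2 and 7.41 to 8.25 times with mitochondria. With MitoCoat it was 5.70 to 6.08 times, below all libraries of those 3 groups. The MitoCoat-mRNA group ran from 5.79 to 7.84 and overlapped MitoCoat through its first library. As a share of the long-gene counts, mt-Nd4 took 0.552, 0.534 and 0.523% with MitoCoat, 0.381, 0.430 and 0.424% with mitochondria and 0.534, 0.415 and 0.397% with MitoCoat-mRNA. Both measures were chosen after the values had been seen and carry no test. Since mt-Nd4 and mt-Nd4l share a messenger, a change of mt-Nd4 counts alone cannot be read as a change of that messenger.

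MitoCoat-mRNA was set against both mitochondrial preparations. Mitochondria against MitoCoat-mRNA had 554 genes called in the whole table, or 3.56% (1141 or 7.33% with the block), and none of the 29 mitochondrial genes tested, 5 of which were higher and 24 lower. The median of the long genes was -0.07 on the log2 scale, 1 of the 29 had an unadjusted p under 0.05, against 2209 or 14.2% of all genes, and DESeq2 called 0. MitoCoat against MitoCoat-mRNA had 467 genes called, or 2.98%, and none of the 30 mitochondrial genes, of which 26 were higher and 4 lower. Unadjusted, 1 of the 30 had a p under 0.05, against 2309 or 14.8% of all genes. DESeq2 called 0 here as well. All 13 long genes were above 0 in this comparison, from 0.09 to 0.42 with a median of 0.19. mt-Nd4 was again the highest, with 227, 138 and 112 CPM with MitoCoat-mRNA (log2 fold change 0.42, SE 0.21, adjusted p = 0.408). The value rested on single MitoCoat-mRNA libraries. Without the first, whose mitochondrial share was the highest of its group, it was 0.76 and the gene passed (adjusted p = 0.018), and without the third it was 0.24. The gene passed in 1 of 14 other settings. In the MitoCoat-mRNA libraries mt-Cox1 had 15231, 11797 and 11900 CPM, mt-Cox2 4449, 3420 and 2706, and mt-Cox3 5070, 4033 and 3204. mt-Cytb had 4938, 3920 and 3438 CPM, mt-Atp6 4641, 3574 and 2375, and mt-Atp8 687, 526 and 300. Library 1 was the highest of the group in all of these. It was also the highest in the complex I genes, with 2800, 2316 and 1468 CPM in mt-Nd1, 2048, 1539 and 1260 in mt-Nd2, 198, 158 and 164 in mt-Nd3, 283, 233 and 187 in mt-Nd4l, and 428, 363 and 210 in mt-Nd6.

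Against the control group, which these 3 comparisons share, the whole table held many more calls. For mitochondria 3523 genes or 22.5% were called, for MitoCoat 3792 or 24.1%, and for MitoCoat-mRNA 2482 or 15.9%. Of 28 mitochondrial genes tested in each, 2 were called with mitochondria, 5 with MitoCoat and 3 with MitoCoat-mRNA, all of them higher, so that the share of calls lay below the background in all 3. The long genes had a median log2 fold change of -0.08 with mitochondria (range -0.20 to 0.20, 3 above and 10 below 0), 0.23 with MitoCoat (range 0.03 to 0.53, all 13 above 0) and 0.04 with MitoCoat-mRNA (9 above and 4 below 0). Only in MitoCoat against control were long genes called. mt-Nd2 rose by 0.52 with an SE of 0.16 (adjusted p = 0.044) and mt-Nd4 by 0.53 with an SE of 0.15 (adjusted p = 0.034). The MitoCoat libraries were above all control libraries in both genes, at 1745, 2153 and 1933 CPM against 1674, 1279 and 1078 for mt-Nd2, and at 196, 239 and 208 against 181, 144 and 116 for mt-Nd4. mt-Nd2 passed in 7 and mt-Nd4 in 8 of 14 other settings. Both calls were lost without control library 2 or 3, without MitoCoat library 2 or 3 and without the libraries numbered 3, with adjusted p up to 0.207 for mt-Nd2 and 0.134 for mt-Nd4. The mt-Nd2 call was also lost with the library number as a block (edgeR adjusted p = 0.067), although the numbers did not pair the libraries here. With the library number as a block, which the data allow for MitoCoat-mRNA against control, 8 of the 28 mitochondrial genes passed there, while 5756 genes or 36.9% of the whole table passed in the same fit. Higher ones included mt-Nd1 (0.23), mt-Nd2 (0.27) and mt-Cox1 (0.17), and mt-Cytb was lower (-0.17, adjusted p = 0.034).

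The 22 short genes carried little of the signal, at 0.191 to 0.406% of the mitochondrial counts. Mature transfer RNAs are shorter than the fragments such libraries usually hold and lack poly(A) tails, so that counts in these intervals are reads that overlap a tRNA gene and not a measure of the mature tRNA. Of the 22, 15 had a mean of at least 10 counts per library. The other 7 were lower, and 5 of them (the genes of tRNA-Tyr, tRNA-Gly, tRNA-His, tRNA-Ser(AGY) and tRNA-Leu(CUN)) had 0 to 4 counts in every library and entered no test, while those of tRNA-Trp (0 to 16 counts) and tRNA-Asp (2 to 19) entered some. The highest were the genes of tRNA-Pro, tRNA-Ser(UCN) and tRNA-Asn, all on the minus strand, where 8 of the 22 lie. The gene of tRNA-Ser(UCN) shares 3 bases with mt-Cox1, that of tRNA-Ile 3 bases with that of tRNA-Gln, both pairs on opposite strands, and that of tRNA-Ser(AGY) 1 base with that of tRNA-Leu(CUN). Whether the counting used strand is stated only as done where applicable, so reads of a minus-strand tRNA gene and of a plus-strand precursor across it may not be told apart.

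All 15 short genes tested had positive log2 fold changes with H2O2 against control, from 0.10 to 1.68 with a median of 0.74. In 8 of them, and in none of the 13 long genes, all H2O2 libraries were above all control libraries, against 14.2% of all genes tested. The 15 genes lie on a few shared precursors and several held few counts, so they are not separate observations. Of the 15, 7 had an unadjusted p under 0.05, against 22.4% of all genes tested, and 1 was called. That was the gene of tRNA-Pro (ENSRNOG00000029145, positions 15348 to 15415, minus strand, 68 bases), which lies beside the control region that holds the promoters of both strands. It had 24.5, 22.1 and 18.9 CPM in control and 33.5, 58.8 and 34.2 with H2O2. The groups did not overlap, and the gene rose by 0.97 with an SE of 0.22 on the log2 scale (95% interval 0.46 to 1.47, adjusted p = 0.036). The call was lost without control library 2 (adjusted p = 0.122), without control library 3 (0.130) and without both libraries numbered 3 (0.158), and it held in 11 of 14 other settings.

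The gene of tRNA-Pro stayed high in the treated groups, with 35.2, 37.0 and 35.3 CPM with mitochondria, 42.0, 60.1 and 56.9 with MitoCoat, and 54.3, 35.7 and 34.8 with MitoCoat-mRNA. All 12 exposed libraries were above all 3 control libraries. Against control the gene rose by 0.72 with mitochondria (SE 0.11, adjusted p = 0.0018), by 1.27 with MitoCoat (SE 0.15, adjusted p = 0.00059) and by 0.94 with MitoCoat-mRNA (SE 0.18, adjusted p = 0.012). The first and second of these calls held in all 14 other settings, and the call for MitoCoat-mRNA was lost in 1, with the libraries numbered 3 left out (adjusted p = 0.051).

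The gene of tRNA-Leu(UUR) (ENSRNOG00000032112, positions 2665 to 2739, plus strand, 75 bases) lies just before mt-Nd1, after the gap where the large ribosomal RNA is placed. It had 5.32, 5.12 and 4.48 CPM in control, 6.65, 11.6 and 7.63 with H2O2, and 8.02, 9.64 and 7.94 with mitochondria. It had 9.45, 16.9 and 13.2 CPM with MitoCoat and 11, 9.51 and 10.0 with MitoCoat-mRNA. Here too every exposed library was above every control library. H2O2 against control gave a log2 fold change of 0.81 with an SE of 0.23, which did not pass (adjusted p = 0.073) and passed in 4 of 14 other settings. Against control the gene rose by 0.78 with mitochondria (SE 0.16, adjusted p = 0.0081), by 1.40 with MitoCoat (SE 0.22, adjusted p = 0.0023) and by 1.04 with MitoCoat-mRNA (SE 0.14, adjusted p = 0.0025), and each call held in all 14 other settings. MitoCoat against H2O2 gave 0.60 with an SE of 0.26 (adjusted p = 0.317).

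The gene of tRNA-Ser(UCN) (positions 6865 to 6933, minus strand, 69 bases) was the 1 mitochondrial gene called between a treatment and H2O2. It had 47.7, 44.2 and 46.9 CPM with H2O2 and 36.3, 32.3 and 35.9 with mitochondria, and it fell by 0.42 on the log2 scale (SE 0.093, adjusted p = 0.039). This call was lost when all 15 libraries were fitted together (adjusted p = 0.338), with the libraries numbered 3 left out (0.188), and without any 1 of the 6 libraries. Control had 23.9, 24.4 and 39.2 CPM, and H2O2 against control gave 0.67 with an SE of 0.18 (adjusted p = 0.063), which passed in 6 of 14 other settings, among them DESeq2 (adjusted p = 0.0026) and the fit without control library 3, where it was 0.95. The gene had 29.7, 42.1 and 51.2 CPM with MitoCoat and 37.3, 32.1 and 44.6 with MitoCoat-mRNA, both overlapping H2O2. The gene of tRNA-Asn (positions 5081 to 5152, minus strand, 72 bases), which has no such pattern, had 10.7, 6.14 and 14.0 CPM in control and 9.05, 10.4 and 13.4 with H2O2 (log2 fold change 0.10, SE 0.28, adjusted p = 0.868). Library 3 was the highest for it in every group, reaching 17.8 CPM with mitochondria and 19.8 with MitoCoat.

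**Figure D5:**
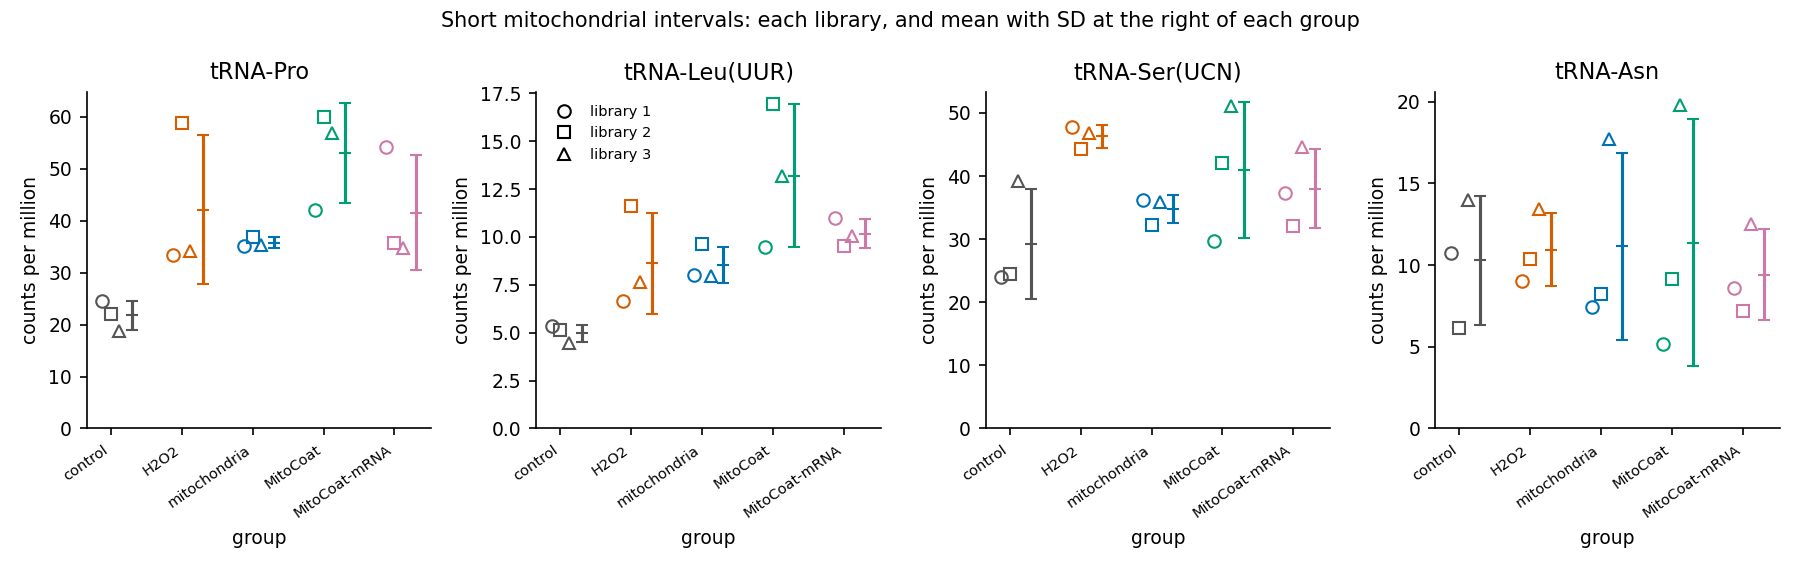
Level in CPM of the genes of tRNA-Pro, tRNA-Leu(UUR), tRNA-Ser(UCN) and tRNA-Asn in each library (points) of the 5 groups, with the mean and SD (n = 3). For tRNA-Pro and tRNA-Leu(UUR) the control libraries (18.9 to 24.5 and 4.48 to 5.32 CPM) lay below all exposed libraries, and for tRNA-Asn the groups overlapped.

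The remaining short genes with the largest changes had few counts. The gene of tRNA-Lys had 12, 18 and 16 counts in control and 30, 38 and 36 with H2O2, without overlap (log2 fold change 1.30, SE 0.37, adjusted p = 0.074), and rose by 1.31 with MitoCoat-mRNA against control (SE 0.37, adjusted p = 0.045), a call held in 4 of 14 other settings and lost without any 1 of the 6 libraries (adjusted p over all settings up to 0.259). That of tRNA-Arg had 12, 6 and 6 counts in control, 32, 30 and 8 with H2O2, and 36, 22 and 31 with MitoCoat. It rose by 1.88 with MitoCoat against control (SE 0.51, adjusted p = 0.028), a call held in 8 of 14 other settings. It was lost without the libraries numbered 3 (adjusted p = 0.160), without control library 2 or 3 and without any 1 MitoCoat library. The value for H2O2 against control was 1.68 with an SE of 0.66 (adjusted p = 0.178). Mitochondria against H2O2 gave -0.98 for tRNA-Arg (SE 0.59, adjusted p = 0.554) and -1.13 for tRNA-Gln (SE 0.45, adjusted p = 0.281), the latter at 18, 36 and 28 counts with H2O2 and 10, 16 and 16 with mitochondria. The gene of tRNA-Ile had 10, 10 and 4 counts in control and 10, 18 and 22 with H2O2 (log2 fold change 1.15, SE 0.57, adjusted p = 0.272). For tRNA-Phe, at the start of the map, the value with MitoCoat-mRNA against H2O2 was 0.93 with an SE of 0.63 (adjusted p = 1.00), and 59 of its counts came from the first MitoCoat-mRNA library, against 26 and 16 in the others. The gene of tRNA-Val, between the gaps of the ribosomal RNAs, had 2.65, 3.23 and 1.67 CPM with H2O2, 1.08, 1.78 and 1.84 with mitochondria and 2.00, 1.65 and 1.32 with MitoCoat-mRNA, with overlap in each pair.

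Summed per kilobase, the short genes stood at 0.025, 0.029 and 0.042 of the long genes in control and at 0.040, 0.041 and 0.056 with H2O2. The ratio was higher with H2O2 by 0.53 on the log2 scale, and by 0.395 to 0.677 within a library number (exact permutation p = 0.3, with overlap through control library 3). The treated groups differed from H2O2 by -0.06, 0.02 and 0.02, and from control by 0.46, 0.55 and 0.54. Minus-strand genes, mt-Nd6 among them, took 1.01 to 1.34% of the mitochondrial counts, which may include plus-strand reads. Their ratio to plus-strand genes per kilobase was 0.35 higher on the log2 scale with H2O2 than in control (exact permutation p = 0.3). The difference was 0.13 from raw counts, the same direction, and -0.12, the opposite one, with every gene given equal weight.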

How the data were processed

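Poly(A)-labelled RNA-seq of 15 rat astrocyte libraries was used. The authors trimmed reads with Trimmomatic (v0.36), aligned them to Rnor6.0 with STAR (v2.5.2b) and deposited raw counts per gene from featureCounts in Subread (v1.5.2), counting uniquely mapped reads on exons and using strand where applicable. Of the low values (1 to 10), 97.4% were even, so that both mates of a pair appear to have been counted. Reads lost to nuclear copies of mitochondrial DNA cannot be seen in such counts. One table of the whole series was identical to the file of 1 library and was not used.

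Groups came from the labels. Genes were named by position on the conserved vertebrate mitochondrial map, since 0 of 32552 identifiers matched the reference table. For the same reason lists of nuclear genes and cell type markers were not analysed here. The members, lists and tests were chosen with earlier results of these data known. Named were all long genes, the 3 highest short genes with a mean of at least 10 counts, and the 3 of these with the largest change in each of 4 comparisons. Other short genes, the shares of long genes and the ratio of mt-Nd1 to mt-Cytb were added after their values had been seen.

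Each of 10 comparisons was fitted on its 6 libraries with edgeR 4.0.16 (filterByExpr, TMM factors, quasi-likelihood F test, R 4.3.3) over all genes, with Benjamini-Hochberg adjustment and a threshold of 0.05. Alternatives were DESeq2 1.42.0, the study's own tool, RLE factors, factors without mitochondrial genes, all genes with a count, all 15 libraries in 1 fit, counts divided by 2, a replicate block, and libraries left out. Ratios used counts per kilobase and two-sided exact permutation tests (scipy 1.17.1). The script was tested on simulated data. Libraries of the same number deviated together (every correlation over 0.1) in 6 of 10 comparisons, and the block is given beside some of their results. Such pairing was not seen in H2O2 against control, nor in MitoCoat against H2O2, against control or against MitoCoat-mRNA. Blocked values of those comparisons, where printed, lack that basis. The pairing comes from the data, since the labels do not say what a number marks.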

Additional observations from a re-analysis of the deposited data

How the results depend on the processing

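Counts of mitochondrial genes called were recomputed in 140 fits, of which 114 were within 1.5 times the count reported. For H2O2 against control (1 call) the count was 3 with DESeq2, 3 with all 15 libraries in 1 fit, 2 with all genes holding a count, 3 with the replicate block and 0 to 2 with 1 library left out (0 without control library 2, 2 without H2O2 library 1). Over the whole table DESeq2 called 1776 genes or 7.93%, the fit of all 15 libraries 1726 or 10.4%, and that of all genes holding a count 1269 or 5.67%. With the block it was 9.45%. For mitochondria against H2O2 (1 call) the mitochondrial count was 0 with all 15 libraries, 2 with the block, 0 without the libraries numbered 3 and 0 to 1 with 1 library left out (1 only without H2O2 library 3, mt-Nd4l in place of tRNA-Ser(UCN)). Over the whole table the fit of all 15 libraries called 771 genes here, or 4.64%. MitoCoat against H2O2 (0 calls) had 1 with the block, the gene of tRNA-Leu(UUR) (0.61, adjusted p = 0.035), in a comparison whose numbers did not pair the libraries. MitoCoat against mitochondria (0 calls) had 1 with DESeq2 and 1 with the block. MitoCoat against MitoCoat-mRNA (0 calls) had 0 to 1 with 1 library left out (1 without MitoCoat-mRNA library 1). MitoCoat against control (5 calls) had 2 without the libraries numbered 3 and 2 to 8 with 1 library left out (8 without control library 1, 2 without control library 2 or MitoCoat library 2 or 3, and 3 without control library 3). MitoCoat-mRNA against control (3 calls) had 8 with the block, 1 without the libraries numbered 3 and 2 to 3 with 1 library left out, and mitochondria against control (2 calls) 2 to 3. Calls over all genes moved as well. Without the libraries numbered 3 they went from 1125 to 122 for H2O2 against control, and against H2O2 from 560 to 213 for mitochondria and from 479 to 153 for MitoCoat. Against control they went from 3523 to 2378 for mitochondria, from 3792 to 1835 for MitoCoat and from 2482 to 803 for MitoCoat-mRNA. Between treatments they went from 554 to 584 for mitochondria against MitoCoat-mRNA and from 467 to 318 for MitoCoat against MitoCoat-mRNA. With the block these 8 counts were, in the same order, 1479, 1243, 924, 4034, 3174, 5756, 1141 and 396. With 1 library left out they ran from 376 to 1166, 254 to 444, 201 to 430, 2137 to 3793, 2155 to 3911, 1249 to 2768, 270 to 620 and 163 to 559. The other comparisons, MitoCoat-mRNA against H2O2 and MitoCoat against mitochondria, had 0 in these settings, except 5 for the latter with the block. Of 501 refitted log2 fold changes of single genes, 437 kept direction and side of the threshold, 41 lost the call, 15 gained one and 8 changed sign. The sign changes were all in H2O2 against control with 1 library left out, where mt-Cox3 ran from -0.19 to 0.20, mt-Cytb from -0.12 to 0.18 and tRNA-Asn from -0.17 to 0.39. Of 750 recomputed ratios, 738 moved by less than 1 SD, but a move under 1 SD could still change a sign. With 1 library left out, complex V to complex IV ran from -0.133 to 0.214 for H2O2 against control. It also changed sign for each treated group against H2O2 (from -0.280 to 0.058 for mitochondria) and against control. Complex I to complex IV ran from -0.161 to 0.017 for MitoCoat against H2O2. Complex III to complex IV moved to -0.083 (MitoCoat against mitochondria) and -0.046 (MitoCoat against MitoCoat-mRNA) without overlapping genes, to -0.076 in the former without the libraries numbered 3, and to -0.241 from raw counts in MitoCoat-mRNA against control. The minus-strand to plus-strand ratio against control moved to 0.125 from raw counts and -0.119 with equal weights (0.5 counts added) for H2O2, to -0.044, -0.228 and, without overlapping genes, 0.496 for mitochondria, to -0.116 with equal weights and 0.624 without overlapping genes for MitoCoat, and to -0.195 with equal weights for MitoCoat-mRNA. The cause of these moves was not tested. The ratio of ribosomal to messenger RNA was not run, since no row held the ribosomal RNAs. With 3 libraries a group no exact test of a ratio can give a p under 0.1. What kept other genes from a call, depth or the number of libraries, was not tested.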
